A study of Mus musculus with 6 samples.

Results

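The complement and coagulation genes described here encode 46 plasma and cell-surface proteins: complement components, clotting factors and their inhibitors. They were chosen by gene symbol, with no measured value in the rule but with earlier results of these data known. All 46 were found among 27095 gene windows. Accessibility was measured by ATAC-seq, in which a transposase inserts adapters where DNA is open. The cells were MHCII-high medullary thymic epithelial cells. There were 3 libraries from Kat7-knockout mice and 3 from wildtype mice, all on the C57BL/6 background and each a separate biological replicate. KAT7 is a histone acetyltransferase. For the age and sex of the mice, the deleted part of Kat7 and any Cre driver, the labels give nothing. Each gene had 1 window, which reaches from 3000 bases before to 2000 bases after a start site on mouse build mm10, so the values describe the promoter region and not the amount of RNA. For Masp2 the annotated gene start lies upstream of the window, at -7922 bases from the start site the window was built on.

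Complement is a cascade of plasma proteases that opsonizes and lyses microbes. It is started by C1q on antibody, by mannose-binding lectins on sugars, or by spontaneous turnover of C3, and all routes meet at cleavage of C3. Coagulation is a parallel cascade in which tissue factor or the contact system activates serine proteases until thrombin turns fibrinogen into fibrin. Most of these proteins are made by hepatocytes, with C1q from macrophages, properdin from myeloid cells, adipsin from fat cells and von Willebrand factor from endothelium. Medullary thymic epithelial cells express many genes of other tissues at low frequency, and so display such self-proteins to developing T cells.

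The promoters shown here were chosen, after their values were seen, as 3 pairs of related genes on the same chromosome. C8b and C8a encode subunits of complement component 8, C1qb and C1qc chains of C1q, and F7 and F10 neighbouring clotting proteases. The sequences are the 250 bases before the start, 5′ to 3′, from RefSeq on GRCm38.p6. Capitals mark matches on either strand. The letters searched for the liver factor HNF4 were CAAAGTCCA and the core within it, CAAAG. For C/EBP factors they were TTGCGCAA and its looser form TTGCNNAA, which holds it. The remaining searches were the TATA box letters TATAAA and, for the myeloid factor PU.1, GAGGAAGT.
C8b (chr4:104766067-104766316, plus strand): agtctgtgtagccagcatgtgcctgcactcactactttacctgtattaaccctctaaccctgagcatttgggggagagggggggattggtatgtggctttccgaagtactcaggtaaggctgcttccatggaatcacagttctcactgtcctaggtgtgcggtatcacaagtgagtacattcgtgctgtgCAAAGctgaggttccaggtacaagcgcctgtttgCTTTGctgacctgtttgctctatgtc
C8a (chr4:104876399-104876648, minus strand): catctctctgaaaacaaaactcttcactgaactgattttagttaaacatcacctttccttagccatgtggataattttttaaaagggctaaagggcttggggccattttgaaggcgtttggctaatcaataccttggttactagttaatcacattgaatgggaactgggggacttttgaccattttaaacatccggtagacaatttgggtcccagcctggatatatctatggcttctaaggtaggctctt
C1qb (chr4:136886201-136886450, minus strand): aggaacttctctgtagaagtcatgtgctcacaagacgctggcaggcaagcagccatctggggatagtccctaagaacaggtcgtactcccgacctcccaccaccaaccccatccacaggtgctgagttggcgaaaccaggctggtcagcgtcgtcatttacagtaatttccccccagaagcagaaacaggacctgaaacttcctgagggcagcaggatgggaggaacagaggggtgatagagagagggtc
C1qc (chr4:136892915-136893164, minus strand): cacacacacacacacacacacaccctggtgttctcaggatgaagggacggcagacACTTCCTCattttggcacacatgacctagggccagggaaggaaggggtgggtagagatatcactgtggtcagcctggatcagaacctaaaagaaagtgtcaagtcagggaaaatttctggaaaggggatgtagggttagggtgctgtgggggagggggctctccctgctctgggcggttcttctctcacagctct
F7 (chr8:13025784-13026033, plus strand): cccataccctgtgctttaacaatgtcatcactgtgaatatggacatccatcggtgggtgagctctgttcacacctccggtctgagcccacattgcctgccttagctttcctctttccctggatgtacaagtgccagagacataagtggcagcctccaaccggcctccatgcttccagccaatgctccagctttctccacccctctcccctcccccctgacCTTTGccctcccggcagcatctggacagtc
F10 (chr8:13037058-13037307, plus strand): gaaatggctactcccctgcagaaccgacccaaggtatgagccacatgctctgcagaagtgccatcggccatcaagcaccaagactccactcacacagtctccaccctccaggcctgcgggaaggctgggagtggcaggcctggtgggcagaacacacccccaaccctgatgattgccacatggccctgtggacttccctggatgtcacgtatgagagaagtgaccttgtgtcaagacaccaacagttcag

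Of 32851 mouse promoters of 300 bases, 250 before and 50 after the start, 0.475% held the long HNF4 form and 53.9% its core. The long C/EBP form was in 0.183% and the looser one in 10.8%. The TATA box letters were in 13.6% and the PU.1 letters in 3.20%. C8b held the HNF4 core at -60 and -26 bases from the start and F7 at -30, while C8a and F10 held none of the motifs. C1qc held the PU.1 letters and C1qb held none of the motifs. These matches describe letters and not binding. A promoter sequence was at hand for 35 of 46 genes (76.1%), below the 80% set for a comparison over the whole group, so that comparison is void.

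Promoter accessibility of these genes was mostly lower in knockout where it changed. Of 45 tested windows, 20 fell (44.4%), 1 rose (2.22%) and 24 did not pass; over all 24817 tested windows 20.2% fell and 6.36% rose. The threshold throughout was an adjusted p of 0.05 in edgeR's quasi-likelihood test, with adjustment over all tested windows. The median log2 fold change, knockout over wildtype, was -0.31 for the members and 0.04 for all windows. In 22 member windows (48.9%) all knockout values lay under all wildtype values, against 24.6% of all windows. The knockout values all lay above in 3, against 13.5% of all windows. At least 2-fold losses numbered 6, against 7.28% of all windows. Complement had 11 of 23 windows lower and 1 higher, and coagulation had 9 of 22 lower and 0 higher in edgeR's test (0 higher in DESeq2, 2 in limma-voom and 2 at an unadjusted p under 0.05); the difference between these groups was not tested. In a mixed population, fewer cells with an open promoter and less opening per cell cannot be told apart.

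**Figure D1:**
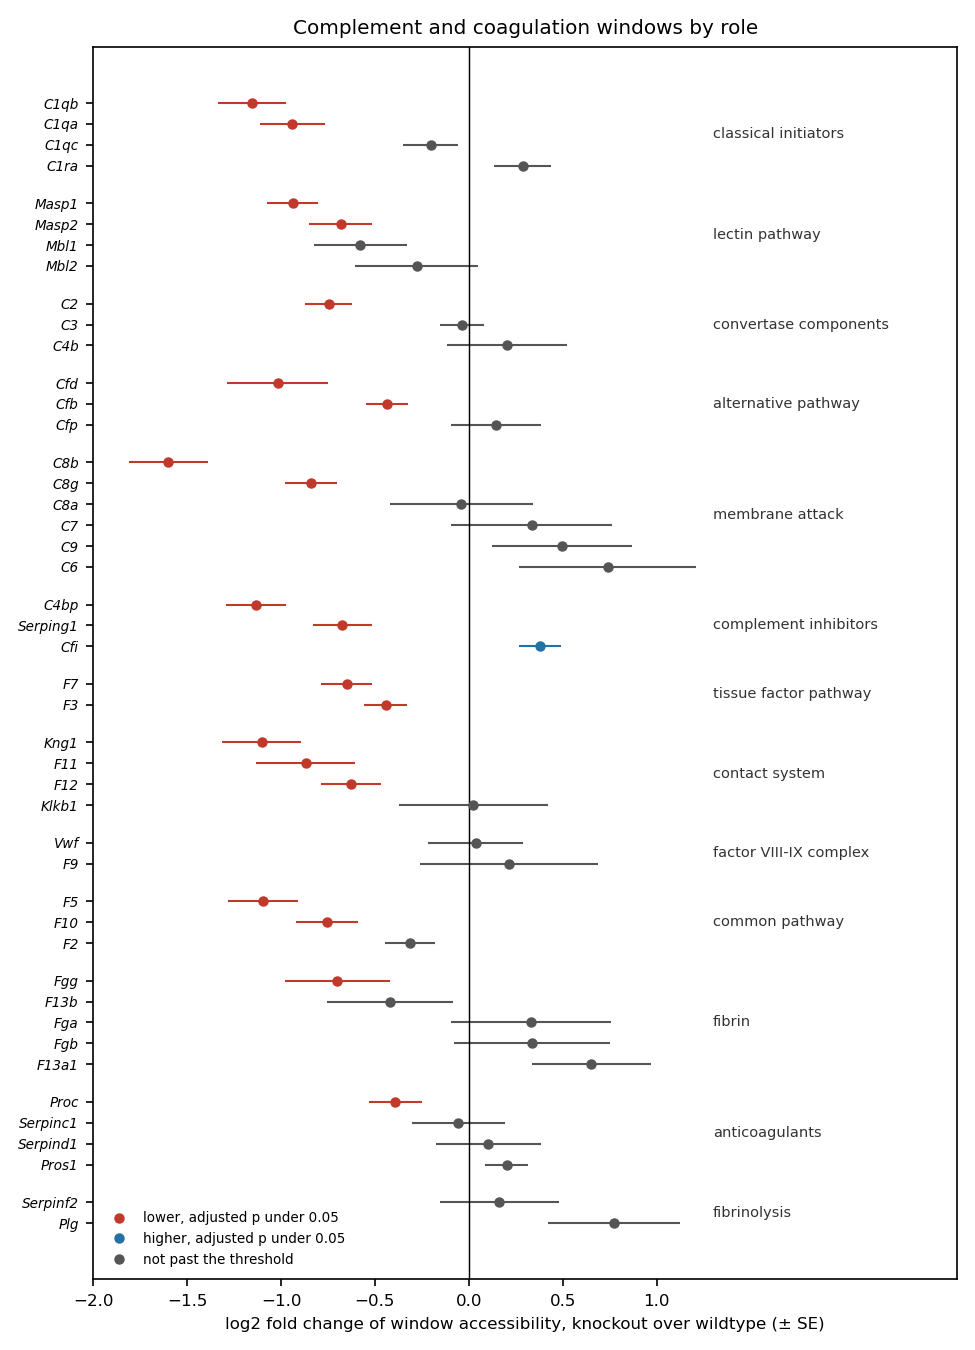
Log2 fold change of window accessibility, knockout over wildtype, with its standard error, for the 45 tested windows grouped by role. The 20 red points are lower and the 1 blue point, Cfi, higher past the threshold; C8b has the largest decline at -1.60.

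Library totals were 15482439 to 19740835 counts in knockout and 15494911 to 19832326 in wildtype. A value of 3 counts corresponded to 0.172 to 0.184 CPM (counts per 1e6, scaled by TMM factor) in knockout and 0.154 to 0.192 CPM in wildtype; such a floor covers counting error only. The Kat7 window had 21.2 ± 14.9 CPM in knockout and 267 ± 26.5 CPM in wildtype (SD, n = 3 each; log2 fold change -3.66, adjusted p = 0.0143). The Kat7 window held 11.9, 13.2 and 38.3 CPM in knockout libraries 1 to 3, against 291, 238 and 272 CPM in wildtype libraries 1 to 3. Knockout library 3 thus kept the most Kat7 signal of the knockout libraries. Without it the log2 fold change was -4.41 (adjusted p = 1.05e-130 in edgeR's test). The Kat7 call was lost without wildtype library 1 (adjusted p = 0.0643) or 3 (adjusted p = 0.0565), and every knockout library was below wildtype. The 10 windows of epithelial and medullary markers, Aire and Epcam among them, were all in level quartile 4 and summed to 1832 to 2209 CPM in knockout and 1661 to 1777 CPM in wildtype. Of these, 0 fell and 2 rose in edgeR's test: Foxn1, the master regulator of thymic epithelium (300 CPM in knockout and 92.9 CPM in wildtype, 1.69, adjusted p = 4.98e-36), and Krt5 (0.61). Among all windows in quartile 4, 3.72% fell and 9.32% rose. Without Foxn1, left out after the values were seen, the sums overlapped, at 1562 to 1877 CPM in knockout and 1582 to 1656 CPM in wildtype. Knockout library 1 had the lowest TMM factor, 0.884 against 0.984 to 1.06 in the other libraries, and it stood apart for the members. Its median difference from the wildtype mean was -0.56 on the log2 scale, against -0.22 in knockout library 2 and -0.10 in knockout library 3, and 37 of 45 members lay below that mean, against 26 and 25. Without it, 20 member windows were lower and 5 higher, with a median of -0.17, against 22.6% lower and 12.6% higher over all windows.

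Whether a window fell went with how accessible it was. Windows were split into quartiles by mean level over the 6 libraries, from 1, the lowest, to 4. In quartile 1, 0 of 8 members fell and 0 rose, against 1.35% and 2.27% of all windows there; none of the 8 had an unadjusted edgeR p under 0.05 and 0 passed in DESeq2, while limma-voom called 2 higher. In quartile 2, 13 of 25 members fell and 0 rose, against 32.5% and 4.56%; 0 rose in DESeq2, 3 in limma-voom and 2 at an unadjusted p. In quartile 3, 7 of 10 fell and 0 rose, against 43.2% and 9.28%, with 0 higher also in DESeq2, limma-voom and at an unadjusted p. In quartile 4, 0 of 2 fell and 1 rose, against 3.72% and 9.32%; limma-voom called 1 lower, DESeq2 and an unadjusted p 0. The members had a median of 3.63 CPM in knockout and 5.75 CPM in wildtype, and all tested windows a median of 8.05 CPM in knockout and 11.9 CPM in wildtype. Loess normalisation removes a trend with level between libraries. After it 13 of the 20 stayed lower, with -1.26 at C8b as the largest decline, and the median of the 20 was -0.46 in place of -0.80. Then 28.9% of member windows were lower and 5 were higher, against 19.7% and 17.4% of all windows. The share of higher among all calls over the whole table was 23.9%, but 47.0% after loess normalisation and 35.6% with library totals alone.

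**Figure D2:**
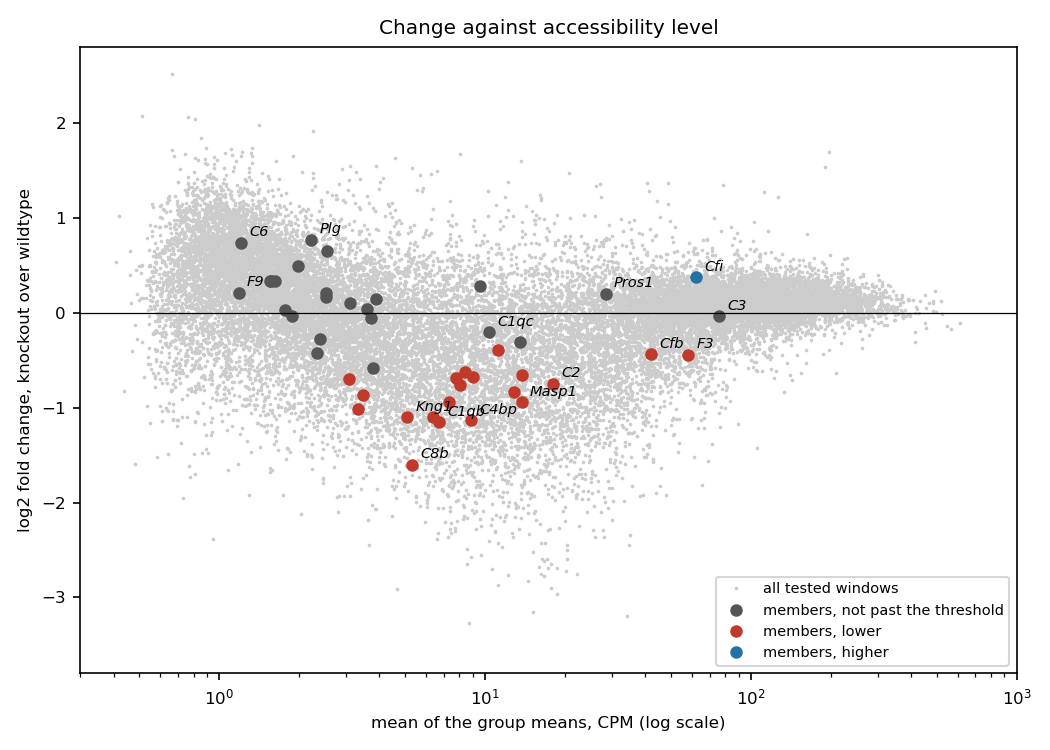
Log2 fold change, knockout over wildtype, against mean level in CPM on a log axis for all tested windows in grey and the 45 members in colour. The 20 lower members lie at middle levels, from Cfd and Fgg up to Cfb and F3, while C6, F9 and Plg lie above 0 at the low end.

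**Figure D3:**
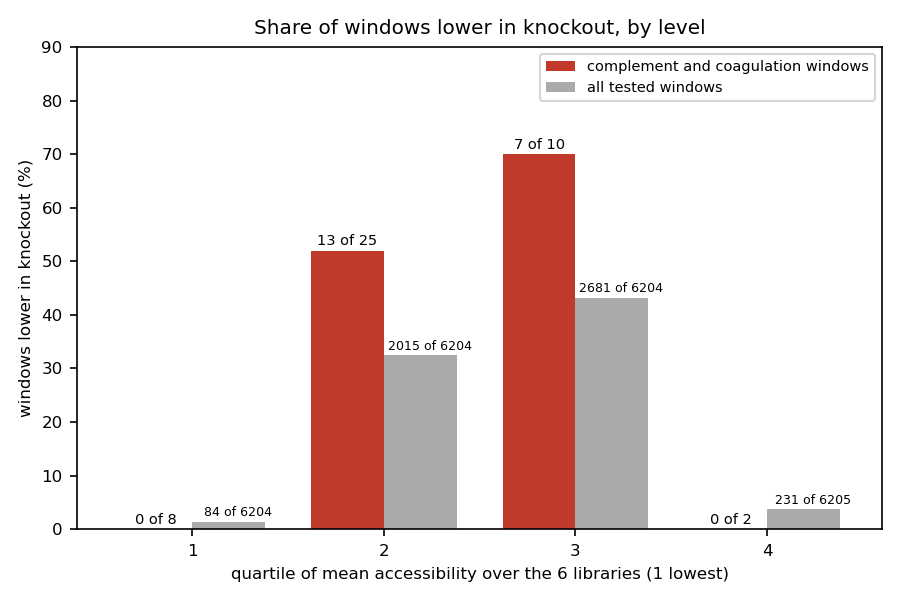
Percentage of windows lower in knockout in each quartile of mean level, for member windows in red and all tested windows in grey, with counts above the bars. The member bars stand at 13 of 25 and 7 of 10 in quartiles 2 and 3 and at 0 in quartiles 1 and 4.

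Classical pathway. C1q is built from A, B and C chains and recognises bound antibody, and its 3 genes lie in a row on chromosome 4. C1qb (136884177 to 136889177) held 3.44, 4.06 and 5.01 CPM in knockout libraries 1 to 3, against 11.3, 7.86 and 8.57 CPM in wildtype libraries 1 to 3 (log2 fold change -1.15, SE 0.18, adjusted p = 3.01e-09). C1qa (136896844 to 136901844) held 4.99, 5.32 and 4.77 CPM in knockout, against 10.2, 8.44 and 10.3 CPM in wildtype (-0.94, SE 0.17, adjusted p = 5.12e-07). Both fell, with no overlap between the groups. C1qc, whose window lies between them, 1.74 kb from that of C1qb and 0.93 kb from that of C1qa, held 9.17, 9.44 and 10.3 CPM in knockout, against 12.3, 10.03 and 10.8 CPM in wildtype. It did not pass (-0.20, adjusted p = 0.332), and its groups overlapped. C1ra, a protease of the C1 complex, did not pass (0.29, adjusted p = 0.159); its near-identical copy C1rb makes the value less certain. It passed as higher after loess normalisation (0.76) and with limma-voom (0.36).

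C1q is made by macrophages, so their marker windows are given beside it. Of 10 macrophage and dendritic markers 4 fell and 2 rose, against 20.2% lower and 6.36% higher over all windows. Of the 10, 5 lay in level quartile 2 and 4 in quartile 3, where 32.5% and 43.2% of all windows fell. The sum of the 10 was 266 to 322 CPM in knockout and 286 to 300 CPM in wildtype. The dendritic marker Zbtb46, which rose (170 CPM in knockout and 136 CPM in wildtype), made up much of that sum. Without it, left out after the values were seen, the other 9 summed to 109 to 125 CPM in knockout and 146 to 163 CPM in wildtype, with no overlap. Leaving out a marker that rose could only lower the knockout sum relative to wildtype, so no conclusion is drawn from this separation. No marker was at 0. The macrophage markers Mertk (-1.23, adjusted p = 1.69e-22) and Cx3cr1 (-1.20, adjusted p = 2.54e-21) fell most, and Flt3 fell as well (-0.45). Ptprc, the leukocyte antigen CD45, had 3.62 CPM in knockout and 1.97 CPM in wildtype and rose (0.89), while Csf1r, the growth factor receptor of macrophages, had 5.18 CPM in knockout and 9.05 CPM in wildtype and fell (-0.80). Their part in the C1q values was not tested.

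Lectin pathway. The proteases MASP1 and MASP2 cut complement once mannose-binding lectin has bound sugars. Masp1 (chromosome 16, 23518590 to 23523590) held 8.37, 9.38 and 10.5 CPM in knockout, against 17.7, 18.2 and 18.1 CPM in wildtype (-0.94, SE 0.14, adjusted p = 6.88e-11). Masp2 (chromosome 4, 148599544 to 148604544) held 3.78, 6.57 and 7.64 CPM in knockout, against 9.94, 8.5001 and 10.3 CPM in wildtype (-0.68, SE 0.17, adjusted p = 0.000278). The knockout values of Masp2 were spread widely, and library 1 was the lowest; with loess offsets its call was lost (-0.24, adjusted p = 0.331). The lectin gene Mbl1 held 2.18, 3.28 and 3.67 CPM in knockout, against 4.36, 4.41 and 4.84 CPM in wildtype. Its groups did not overlap, but it did not pass (-0.58, adjusted p = 0.0679); it passed as lower in 3 of 14 alternatives, limma-voom and leaving out knockout library 3 among them. Mbl2, the other lectin gene, had -0.28 (adjusted p = 0.581).

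Convertases and alternative pathway. C2 and factor B are the homologous proteases that cut C3, and their windows lie 14.6 kb apart on chromosome 17. C2 (34880100 to 34885100) held 14.2, 13.6 and 12.5 CPM in knockout, against 21.9, 21.7 and 24.0 CPM in wildtype (-0.75, SE 0.12, adjusted p = 2.77e-08). Cfb (34860514 to 34865514), which encodes factor B, held 41.1, 34.6 and 31.8 CPM in knockout, against 47.0, 48.6 and 49.98 CPM in wildtype (-0.44, SE 0.11, adjusted p = 0.00063). Both windows were lower in every knockout library. C3, the central component, was the most accessible member, with 84.1, 66.4 and 75.0 CPM in knockout and 71.8, 80.7 and 79.0 CPM in wildtype. It did not pass (-0.04, SE 0.12, adjusted p = 0.853), and its groups overlapped. With limma-voom and sample weights C3 passed as lower, at -0.18. C4b had 0.20 (adjusted p = 0.688) at 2.69 ± 1.09 CPM in knockout and 2.35 ± 0.61 CPM in wildtype (SD, n = 3 each), and its near-identical copy C4a makes that value less certain.

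Cfd encodes adipsin, the protease that cuts factor B. Its window (chromosome 10, 79887853 to 79892656) held 1.95, 2.03 and 2.63 CPM in knockout, against 4.51, 3.96 and 4.90 CPM in wildtype (-1.02, SE 0.27, adjusted p = 0.00103). It shares 1852 bases with 3 other windows, that of Elane among them, and is less certain. Cfp, which encodes properdin, the stabiliser of the alternative convertase, did not pass (0.15, adjusted p = 0.705).

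Membrane attack. Components C6 to C9 assemble the pore, and component 8 is a complex of alpha, beta and gamma chains. C8b (chromosome 4, 104763317 to 104768317) had the largest decline of all members. It held 2.12, 2.75 and 3.06 CPM in knockout, against 7.84, 7.61 and 8.57 CPM in wildtype (-1.60, SE 0.21, adjusted p = 5.95e-13), so knockout was at 33.0% of wildtype. C8g (chromosome 2, 25498656 to 25503506) held 9.80, 7.88 and 10.03 CPM in knockout, against 18.04, 13.3 and 18.1 CPM in wildtype (-0.84, SE 0.14, adjusted p = 1.34e-08). Its window shares 4160 of 4851 bases with 2 other windows, that of Fbxw5 among them, and is less certain. C8a, 106 kb from C8b, held 0.974, 2.33 and 2.26 CPM in knockout and 1.33, 1.92 and 2.48 CPM in wildtype and did not pass (-0.04, adjusted p = 0.954). C6 (0.74), C7 (0.34) and C9 (0.50) did not pass either and lay at 0.904 to 1.64 CPM in wildtype. Without knockout library 1, C6 (1.09, adjusted p = 0.0473) and C9 (0.85, adjusted p = 0.0174) passed as higher, as they did with limma-voom.

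Complement inhibitors. C4BP and factor I together inactivate C4b, and the C1 inhibitor, encoded by Serping1, blocks C1, the MASPs and contact proteases. C4bp (chromosome 1, 130659618 to 130664618) held 4.76, 6.09 and 5.75 CPM in knockout, against 11.2, 11.8 and 13.4 CPM in wildtype (-1.13, SE 0.16, adjusted p = 2.70e-11). The pseudogene C4bp-ps1, 14953 bases away, fell too (-0.74). Whether C4bp and its pseudogene shared reads was not tested. Serping1 fell (-0.67, SE 0.16, adjusted p = 0.000123), but did not pass after loess normalisation (-0.20). Cfi (chromosome 3, 129833739 to 129838739), which encodes factor I, was the 1 member that rose. It held 80.0006, 65.6 and 66.0 CPM in knockout, against 55.3, 54.1 and 53.3 CPM in wildtype (0.38, SE 0.11, adjusted p = 0.00488). Its neighbour Rrh, 8.23 kb away, rose as well (0.56). The Cfi window shares 658 bases with that of Gar1.

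**Figure D4:**
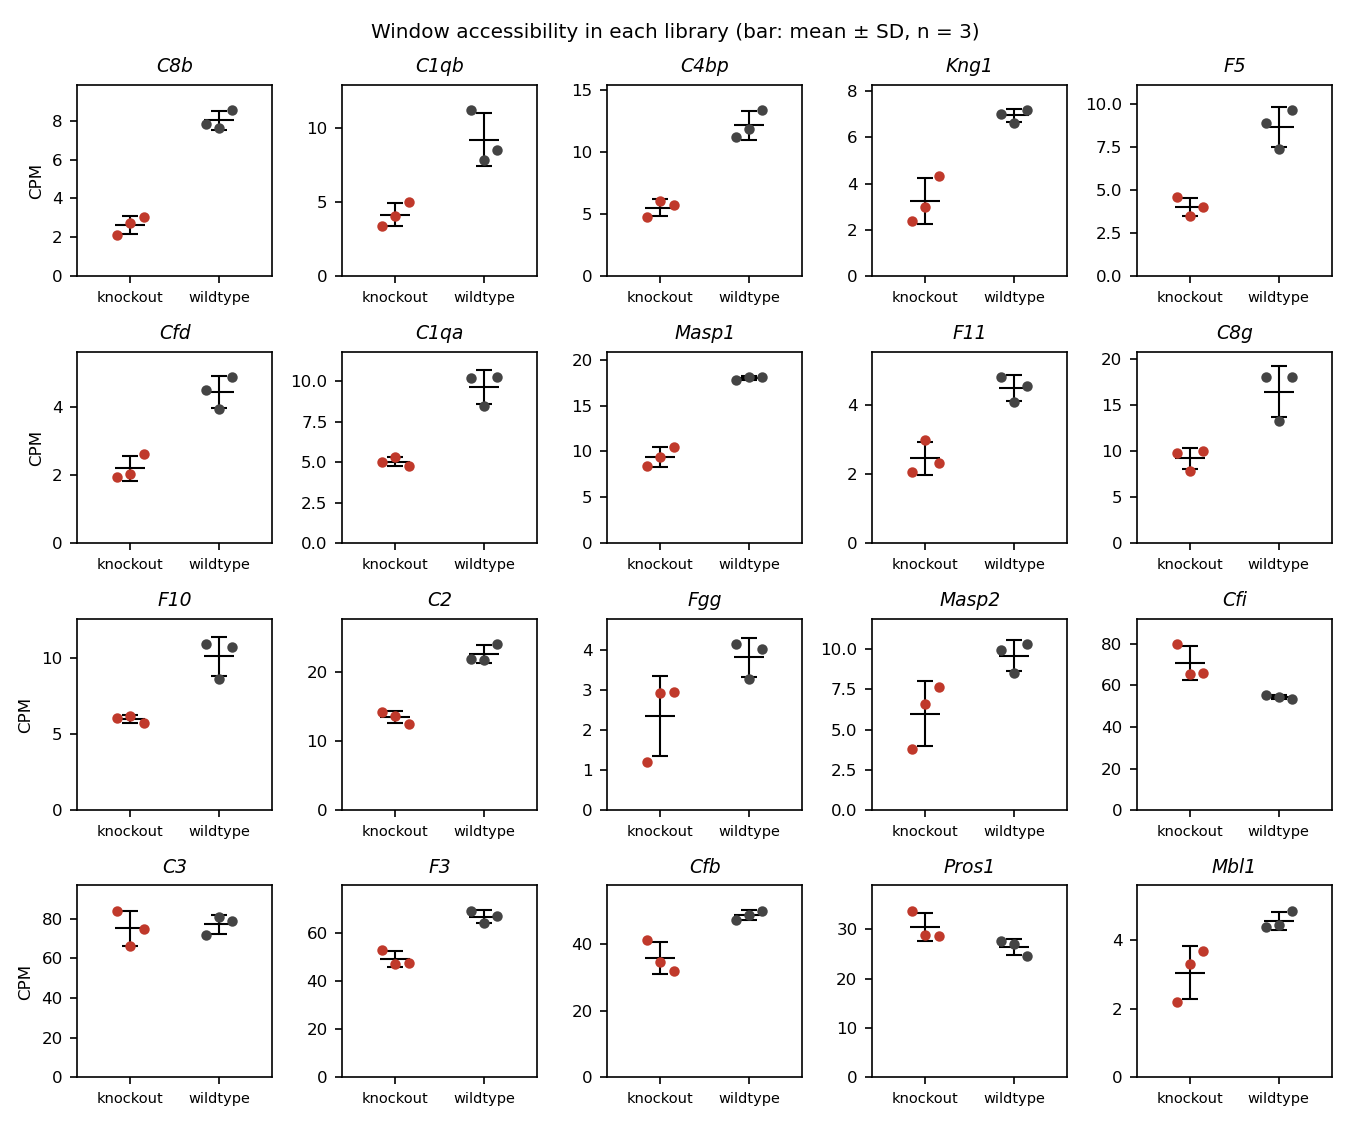
Accessibility in CPM in each library of 20 member windows, with knockout left of wildtype, points for single libraries and bars for the mean ± SD (n = 3). From C8b to Masp2, and at F3, Cfb and Mbl1, all knockout points lie below wildtype; at Cfi and Pros1 they lie above, and at C3 the groups overlap.

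Tissue factor and contact pathways. Tissue factor, encoded by F3, is the membrane receptor that starts clotting with factor VII. F3 (chromosome 3, 121720537 to 121725537) held 53.2, 47.2 and 47.5 CPM in knockout, against 69.5, 64.1 and 67.4 CPM in wildtype (-0.44, SE 0.11, adjusted p = 0.000621). It was the most accessible coagulation window, and its groups did not overlap. F7 fell by 0.65 on the log2 scale (SE 0.13, adjusted p = 1.03e-05), but did not pass after loess normalisation (-0.20). Of the contact system, Kng1 (chromosome 16, 23055300 to 23060300), which encodes kininogen, held 2.41, 2.99 and 4.34 CPM in knockout, against 7.02, 6.65 and 7.21 CPM in wildtype (-1.10, SE 0.21, adjusted p = 1.45e-06). Its homologous neighbour Kng2, 23.2 kb away, fell likewise (-1.23). Whether reads were shared between these 2 windows was not tested.

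F11 (chromosome 8, 45260031 to 45265031), the gene of the protease that activates factor IX, held 2.06, 2.99 and 2.32 CPM in knockout, against 4.82, 4.09 and 4.55 CPM in wildtype (-0.87, SE 0.26, adjusted p = 0.00482). F12, the contact protease gene, fell (-0.63, adjusted p = 0.000618), but did not pass after loess normalisation (-0.16). Klkb1, which encodes plasma prekallikrein and lies 27.8 kb from F11, did not pass (0.02, adjusted p = 0.973) at 1.78 ± 0.37 CPM in knockout and 1.76 ± 1.11 CPM in wildtype (SD, n = 3 each).

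Factors V, VIII, IX and X, prothrombin and von Willebrand factor. F5 (chromosome 1, 164148859 to 164153859), which encodes the cofactor of factor X, held 4.58, 3.52 and 4.04 CPM in knockout, against 8.92, 7.41 and 9.69 CPM in wildtype (-1.10, SE 0.19, adjusted p = 4.42e-08). Its window shares 3643 bases with that of Gm16548. F10 (chromosome 8, 13034308 to 13039308), which encodes the protease that activates prothrombin, held 6.07, 6.15 and 5.69 CPM in knockout, against 10.9, 8.63 and 10.7 CPM in wildtype (-0.76, SE 0.16, adjusted p = 3.31e-05). The groups did not overlap at either window, but with loess offsets the call at F10 was lost (-0.30, adjusted p = 0.121). F2, the prothrombin gene, had every knockout library below wildtype but did not pass (-0.31, adjusted p = 0.0692); it passed in 4 of 14 alternatives and had 0.13 after loess normalisation.

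F9 (0.21, adjusted p = 0.786) and Vwf (0.04, adjusted p = 0.938) did not pass. F8 had 3, 6 and 7 counts in knockout and 6, 3 and 5 counts in wildtype, too few to be tested; its window shares 3643 bases with that of Fundc2. Vwf and F8 are endothelial genes. Of 7 endothelial marker windows 2 fell and 1 rose, against 20.2% lower and 6.36% higher over all windows. Their sum was 81.0 to 85.8 CPM in knockout and 86.4 to 92.0 CPM in wildtype, and none was at 0. The part of these markers in the Vwf and F8 values was not tested.

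Fibrin and its control. The 3 fibrinogen chains are encoded in 1 cluster on chromosome 3. Fgg (83004896 to 83009896) held 1.20, 2.93 and 2.94 CPM in knockout, against 4.15, 3.26 and 4.02 CPM in wildtype (-0.70, SE 0.28, adjusted p = 0.0485). The decline was largest in knockout library 1, and Fgg did not pass in 11 of 14 alternatives, with -0.39 (adjusted p = 0.187) without that library; it also did not pass without any 1 of the wildtype libraries, at -0.63 to -0.82. Fga (0.33, adjusted p = 0.617) and Fgb (0.34, adjusted p = 0.602) did not pass and stood at 1.38 ± 0.31 CPM (Fga) and 1.44 ± 0.38 CPM (Fgb) in wildtype (SD, n = 3). The Fgb window shares 253 bases with that of Plrg1. F13a1, the catalytic subunit of the fibrin cross-linking factor XIII, had every knockout library above wildtype, at 2.92, 3.11 and 3.30 CPM in knockout and 1.90, 1.66 and 2.36 CPM in wildtype. It did not pass (0.65, adjusted p = 0.120), but passed as higher in 4 of 13 alternatives, loess offsets (0.73), limma-voom (0.60) and leaving out knockout library 1 (0.69, adjusted p = 0.0388) among them. F13b had -0.42 (adjusted p = 0.382).

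Proc, which encodes protein C, the protease that inactivates factors V and VIII, fell (-0.39, SE 0.14, adjusted p = 0.0264), but it did not pass in 8 of 14 alternatives and had 0.08 after loess normalisation. Leaving out knockout library 2 or 3, or wildtype library 1 or 3, also ended the call, at adjusted p from 0.0545 to 0.102. Its cofactor gene Pros1 (chromosome 16, 62851334 to 62856334) held 33.8, 28.8 and 28.7 CPM in knockout, against 27.7, 27.0 and 24.6 CPM in wildtype. It did not pass (0.20, adjusted p = 0.191), but passed as higher in 2 of 14 alternatives, loess offsets (0.45) and a mean count of at least 50 (0.23). The genes of the thrombin inhibitors antithrombin, Serpinc1 (-0.06, adjusted p = 0.898), and heparin cofactor, Serpind1 (0.10, adjusted p = 0.826), did not pass. Plg, the plasminogen gene (0.77, adjusted p = 0.0914), and Serpinf2, its antiplasmin (0.16, adjusted p = 0.752), did not pass. Plg passed as higher in 4 of 13 alternatives, loess offsets (0.75), limma-voom (0.95) and leaving out knockout library 1 (0.94, adjusted p = 0.0156) among them.

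**Figure D5:**
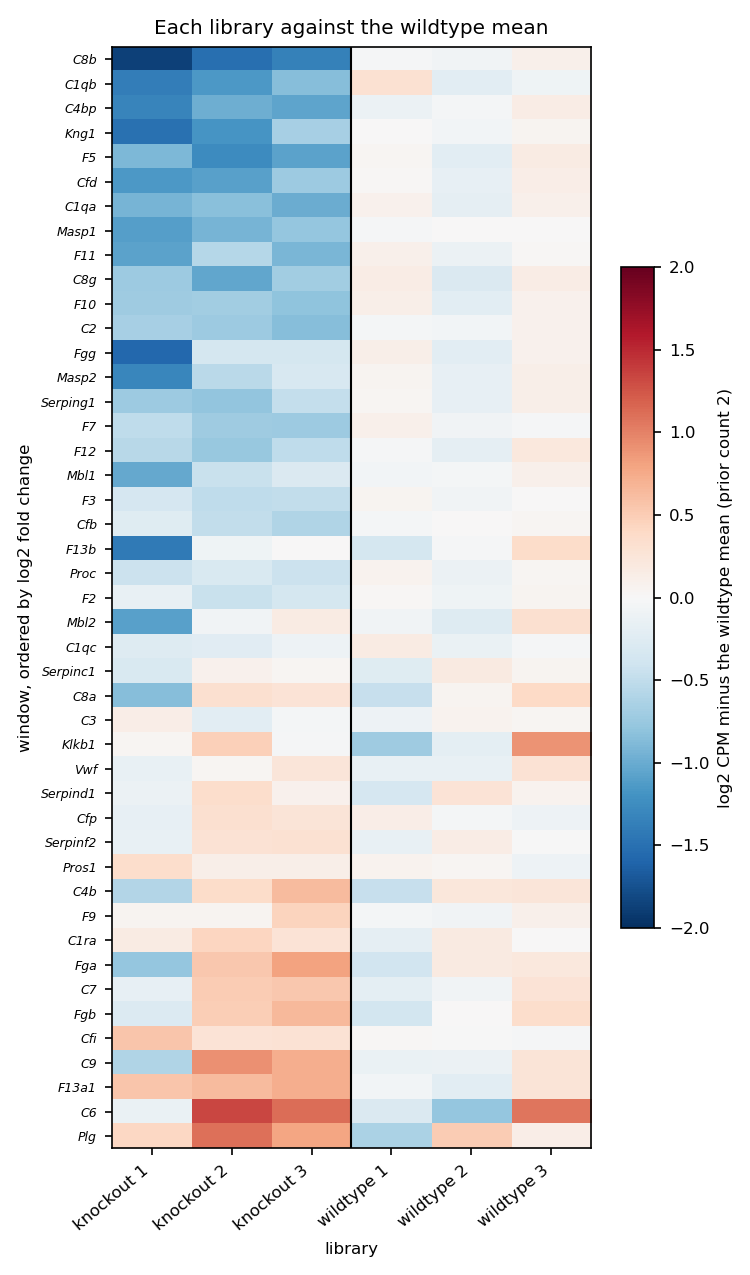
Log2 CPM minus the wildtype mean (prior count of 2) for the 45 tested windows, ordered by log2 fold change, in knockout libraries 1 to 3 and wildtype libraries 1 to 3. From C8b down to Cfb all 3 knockout libraries are blue; at C9, Fga and C4b knockout library 1 is blue while libraries 2 and 3 are red.

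Neighbouring members were compared within the same libraries, as the difference of their log2 CPM values. The 8 pairs were chosen after their values were seen. The change at C8b was lower than at C8a by a log2 value of -1.48 (knockout difference 0.56 ± 0.42, wildtype 2.04 ± 0.38, SD, n = 3 each; exact two-sided permutation p = 0.1, adjusted p = 0.114 over 8 pairs). The change at C1qb was lower than at C1qc by a log2 value of -0.93 (knockout difference -1.20 ± 0.18, wildtype -0.27 ± 0.12, SD, n = 3 each; exact permutation p = 0.1). Here 0.1 is the smallest p that 3 against 3 allows, so no pair could pass. C1qa against C1qc (-0.73), F11 against Klkb1 (-1.01), Fgg against Fga (-0.95) and Fgb (-1.05), and C2 against Cfb (-0.30) were also separated between the groups. C8b, F11 and Fgg lay in level quartile 2, but C8a, Klkb1, Fga and Fgb in quartile 1. The median log2 fold change of all windows was 0.37 in quartile 1 and -0.27 in quartile 2. The part of level in the gaps of these pairs was not tested. F7 and F10, 6.27 kb apart, had a difference of 0.09, and their groups overlapped (exact permutation p = 0.4). Around the lower members, 31 windows of other genes were the nearest that share no base with them; 8 of these fell (25.8%) and 1 rose, against 20.2% and 6.36% of all windows.

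Other genes of the same pathways, were taken from a list of receptors, regulators and further components. Of 64 tested windows 21 fell (32.8%) and 2 rose, with a median log2 fold change of -0.15, against 20.2% lower and 6.36% higher over all windows. Of the 64, 46 lay in level quartiles 2 and 3, where 32.5% and 43.2% of all windows fell. In quartiles 1 and 4, with 9 of the 64 each, 1.35% and 3.72% of all windows fell. The share lower was not compared level by level. Cr2, the complement receptor of B cells, had 16.1 CPM in knockout and 42.3 CPM in wildtype (-1.39, adjusted p = 9.12e-31), and Itgb3, an integrin that binds fibrinogen, had 14.6 CPM in knockout and 37.7 CPM in wildtype (-1.37, adjusted p = 5.63e-29). Kng2 (-1.23), the plasminogen activator inhibitor gene Serpinb2 (-1.22) and the thrombin receptor gene F2rl2 (-1.18) followed. The platelet integrin gene Itga2b (0.58, adjusted p = 0.00929) and the C1 protease gene C1s1 (0.35, adjusted p = 0.00897) rose; Itga2b did not pass without knockout library 2 or wildtype library 3, and C1s1 without wildtype library 1. Of 15 complement receptors and surface regulators 5 fell and 0 rose in edgeR's test: Cr2 and the genes Cd55 (-0.50), Cd55b (-0.75), Cd59a (-0.76) and Cd59b (-0.78), which protect cells from complement. The surface regulators Cr1l (0.25, with every knockout library above wildtype) and Cd46 (0.09) did not pass. The 4 genes of vitamin K use and factor secretion, Vkorc1, Ggcx, Mcfd2 and Lman1, had -0.23 to 0.03, and 0 passed in edgeR's test, adjusted or unadjusted. All 4 lay in level quartile 4, where 3.72% of all windows fell and 9.32% rose.

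Windows of transcription factors known as regulators of hepatocyte genes were also measured. Of 11 such windows tested 6 fell and 0 rose in edgeR's test, with a median of -0.56, against 20.2% lower and 6.36% higher over all windows. Of the 11, 8 lay in level quartiles 2 and 3, where 32.5% and 43.2% of all windows fell. Prox1 (-1.05), Nr1h4 (-0.99), Hnf4g (-0.97), Onecut1 (-0.88), Nr5a2 (-0.70) and Foxa2 (-0.56) fell. Hnf4a had -0.08 at 2.09 CPM in knockout and 2.20 CPM in wildtype, in a window that overlaps that of Hnf4aos. Foxa1 (0.28), Onecut2 (-0.21), Cebpa (0.12) and Cebpb (-0.24) did not pass, and Foxa3 was not tested. Foxa1 passed as higher in 9 of 14 alternatives, DESeq2, limma-voom and loess offsets among them, and at an unadjusted p. Onecut2 passed as lower in 6 of 14 and Cebpb in 1. Nr5a2 did not pass with loess offsets (-0.34, adjusted p = 0.125) or without knockout library 2 or wildtype library 3, and Prox1 did not pass without knockout library 3 or any 1 of the wildtype libraries.

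Markers of other cells that make these proteins were also measured. Over all tested windows 20.2% fell and 6.36% rose, with 32.5% lower in level quartile 2 and 43.2% in quartile 3. Of 8 hepatocyte marker windows 4 fell and 0 rose, at an adjusted or unadjusted edgeR p, with a sum of 43.8 to 52.7 CPM in knockout and 60.7 to 65.5 CPM in wildtype. Of the 8, 5 lay in level quartile 2 and 1 in quartile 3. Ttr (-1.04), Ahsg (-0.85), Apob (-0.44) and Apoa1 (-0.38) fell, while Tat (0.31), Serpina1a (0.31) and Cps1 (0.12) did not pass. Alb, the albumin gene, had 1.53 CPM in knockout and 1.10 CPM in wildtype (0.49) and did not pass either. Of 6 windows listed as fibroblast markers 4 fell and 1 rose, with sums of 102 to 104 CPM in knockout and 160 to 163 CPM in wildtype. Of the 6, 1 lay in level quartile 2 and 5 in quartile 3. Thy1 had the largest drop, with 8.66 CPM in knockout and 42.3 CPM in wildtype (-2.29), and so weighed heavily in that sum. Whether Thy1 marked fibroblasts in these cells was not tested. Col1a2 (-1.34), Pdgfrb (-1.17) and Pdgfra (-0.55) fell too, Dcn rose (0.89) and Col1a1 did not pass (-0.12). Of 6 megakaryocyte and platelet markers 1 fell and 1 rose, with sums of 26.4 to 31.2 CPM in knockout and 29.2 to 30.9 CPM in wildtype. Of these 6, 1 lay in level quartile 1 and 5 in quartile 2. No marker of these lists was at 0, and their part in the members' values was not tested.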

How the data were processed

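The authors deposited raw read counts for each gene window, made with featureCounts on mm10, per the submitters' processing notes; reads were paired-end of 75 bases. Aligner, duplicate handling and transposase shift: not given in the sources used here. Symbols were joined by gene identifier from the libraries' own tables, all 6 of which held the same counts as the series table. Of 46 members, 6 had windows that share bases with another, and 45 had the RefSeq gene start inside the window.

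Windows were filtered with filterByExpr, scaled by TMM and tested in R 4.3.3 with edgeR 4.0.16 (robust glmQLFit and glmQLFTest, Benjamini-Hochberg adjustment over 24817 windows). The standard error is the log2 fold change divided by the root of the F statistic. DESeq2 1.42.0, limma 3.58.1, loess offsets, other scalings and filters, a replicate block and leaving out each library were alternatives. The biological coefficient of variation was 10.9%. Values in each library are given for the 14 called members with the largest change, those called higher, the 6 most accessible in wildtype and the 2 nearest the threshold. Outside this rule they are also given for C1qc, C8a and F13a1, and as counts for F8. Members, lists and motifs were chosen with earlier results of these data known. Some regulators and motifs are not reported here.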

Additional observations from a re-analysis of the deposited data

How the results depend on the processing

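The members' loss kept its direction under every alternative run, with 13 to 22 windows lower, and the lowest count came from loess offsets. The share lower was 28.9% (loess offsets) to 61.3% (mean count of at least 50, with 31 members tested). Over all windows it was 16.8% (DESeq2 test) to 29.2% (mean count of at least 50). With limma-voom 48.9% of members were lower, against 27.5% of all windows. The number of gains was less stable. Member windows higher numbered 5 with loess offsets, 2 with a mean count of at least 50, 6 with limma-voom, and 1 to 5 when 1 library was left out. Cfi, the 1 gain of the reported fit, stayed higher in 14 of 14 alternatives. Windows sharing no base were taken from the reported fit without a new fit. Among them 0 members were higher, because the Cfi window shares bases and was left out. Over all windows, those higher numbered 2937 with library totals, 4324 with loess offsets, 3937 with a mean count of at least 50, 4738 with limma-voom, and 689 (without wildtype library 1) to 3177 (without knockout library 1) when 1 library was left out. Companion windows higher were 10, 4 and 9 with loess offsets, the mean count of at least 50 and limma-voom, and 1 to 3 when 1 library was left out. The members' median was -0.63 with a mean count of at least 50, where fewer windows were tested; the cause of the other shifts was not tested.

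With the replicate block, 21 members were lower and 3 higher, against 22.3% lower and 11.4% higher over all windows. In that fit 2824 windows were higher over the whole table and 5 of the companion list. Same-numbered libraries did not all deviate together (correlations 0.392, 0.0477 and 0.394), so the numbers were not taken as pairs, and not every library correlated best with its own number.

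Signs changed at 14 genes. Of these, Proc passed the test in the reported fit. With loess offsets the log2 fold changes were 0.27 (C1qc), -0.093 (Klkb1), -0.11 (F9), 0.13 (F2), 0.076 (Proc), 0.21 (Serpinc1) and 0.23 (Cebpb). DESeq2 size factors and the DESeq2 test gave 0.018 for C3 and 0.012 and 0.011 for C8a. Klkb1 had -0.0072 with library totals and -0.0098 with no filter. With limma-voom C8a had 0.13, Vwf -0.014 and Serpinc1 0.030. Leaving out 1 library gave -0.13 to 0.045 for C3, -0.063 to 0.50 for C4b, -0.25 to 0.27 for C8a, -0.22 to 0.072 for Hnf4a, -0.30 to 0.64 for Klkb1, -0.54 to 0.024 for Mbl2, -0.17 to 0.057 for Serpinc1, -0.061 to 0.22 for Serpind1 and -0.078 to 0.18 for Vwf. Windows near 1 or 2 CPM hold few counts, which limits their precision, but not all of the 14 genes had such low windows. C3 lay in level quartile 4, and C1qc, F2, Proc and Cebpb lay in quartile 3. C1qc, F2, Proc and Cebpb changed sign only with loess offsets. The cause of the sign changes was not tested.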
